A study of Homo sapiens with 32 samples.

Results

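The mRNAs of 10 tubulin isotypes were followed in 4 human endometrial cancer cell lines given the microtubule drug paclitaxel, the CLK inhibitor SM08502, or both. The set comprised the alpha tubulin genes TUBA1A, TUBA1B, TUBA1C and TUBA4A and the beta tubulin genes TUBB, TUBB2A, TUBB2B, TUBB3, TUBB4B and TUBB6. TUBA1A, TUBA1B and TUBA1C lie close together on chromosome 12, and TUBB2A and TUBB2B on chromosome 6 (TUBB2A at chr6:3153666-3157544 and TUBB2B at chr6:3224277-3227653, RefSeq on GRCh38.p14). The 10 genes were chosen by name from the 35238 genes of the deposited table, and all 10 passed the filter on low values, which kept 17011 genes. The choice was made with earlier results of these data known, so counts of members set beside all genes are a description.

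Alpha and beta tubulin pair into the dimer from which microtubules polymerise, and paclitaxel binds the beta subunit inside the polymer and stabilises it, so that dividing cells stall in mitosis. Cells also tune their tubulin mRNA to the pool of free dimers: when dimers are plentiful, the adaptor TTC5 recognises tubulin chains emerging from the ribosome and their mRNAs are degraded with the help of SCAPER and the CNOT deadenylase. The isotypes differ mainly in their carboxyl-terminal tails, and TUBB3, best known from neurons, has been studied in carcinomas treated with taxanes.

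Each line was sampled on 0.1% DMSO vehicle, paclitaxel alone, SM08502 alone and the combination, with 2 libraries per group and 24 h of treatment. Ishikawa carried wild-type CTNNB1, the beta-catenin gene, while Ishikawa-S33Y, SNGM and HEC265 were labelled CTNNB1-mutated. Drugs were given at each line's own viability IC50. Ishikawa received 11 nM paclitaxel and 80 nM SM08502, Ishikawa-S33Y 6 and 85 nM, SNGM 11.7 and 350.7 nM, and HEC265 5.6 and 149 nM, respectively. The labels say that cells were plated in duplicate but not that the replicates came from separate cultures, so the p-values measure the spread between these libraries, which may be technical. Dose and RNA input (350 ng for Ishikawa libraries, 500 ng for the rest) differed by line and cannot be told apart from it.

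Levels are given as CPM, reads per 1000000 reads counted. Depth, in units of 1000000 reads, was 13.03 to 34.1 in 30 libraries (median 21.7), 2.99 in Ishikawa-S33Y combination replicate 2 and 1.61 in SNGM combination replicate 2. The 10 isotypes took 0.391% to 0.828% of the reads of a library. All 6 epithelial markers tested were present in every library (EPCAM 129 to 320.1 CPM), while 8 markers of other cell types were mostly low. PTPRC and CD3E (leukocytes) reached 2.38 and 0.444 CPM, PECAM1 and VWF (endothelium) 4.31 and 8.34, and COL3A1 and DCN (fibroblasts) 4.69 and 3.73. CD68, a macrophage marker, was 3.30 to 50.4 CPM and COL1A1, a fibroblast collagen, 0 to 1158 (median 16.7), and their part in the results was not tested. In bulk libraries, fewer cells of a type and less RNA per cell cannot be told apart. TUBA1A, TUBA1B and TUBA1C are near-identical copies, as are TUBB2A and TUBB2B, and how shared reads were divided is not given in the sources used here. Reads listed under 39 tubulin pseudogenes summed to only 4.02 to 7.81 CPM per library. TUBA4A overlaps STK16 and TUBA4B, TUBB4B overlaps CIMIP2A and TUBB6 overlaps AFG3L2 in RefSeq, and the strand of counting is not given in the sources used here.

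The RefSeq promoters of TUBA1A, TUBA4A and TUBB3 are shown because these 3 genes had the smallest p-values of the table when both additions of paclitaxel were averaged. Each is the 300 bases from 250 before to 50 after an annotated start, read 5′ to 3′ on the gene's strand in GRCh38.p14. Capitals mark CCAAT or its complement ATTGG, and GGGCGG or its complement CCGCCC. The TUBA1A window (chr12:49189031-49189330, minus strand) holds 2 CCAAT matches, which begin 125 and 88 bases before the start. The TUBA4A window (chr2:219253869-219254168, minus strand) holds 4 GGGCGG matches and no CCAAT. The TUBB3 window (chr16:89923092-89923391, plus strand) is the downstream of its annotated starts and holds 1 CCAAT and 5 GGGCGG matches.
TUBA1A: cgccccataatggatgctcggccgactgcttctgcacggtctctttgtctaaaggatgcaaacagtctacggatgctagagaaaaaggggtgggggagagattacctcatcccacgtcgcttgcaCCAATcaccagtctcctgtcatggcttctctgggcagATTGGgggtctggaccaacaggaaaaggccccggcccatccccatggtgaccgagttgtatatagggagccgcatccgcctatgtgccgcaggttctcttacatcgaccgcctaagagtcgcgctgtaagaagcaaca
TUBA4A: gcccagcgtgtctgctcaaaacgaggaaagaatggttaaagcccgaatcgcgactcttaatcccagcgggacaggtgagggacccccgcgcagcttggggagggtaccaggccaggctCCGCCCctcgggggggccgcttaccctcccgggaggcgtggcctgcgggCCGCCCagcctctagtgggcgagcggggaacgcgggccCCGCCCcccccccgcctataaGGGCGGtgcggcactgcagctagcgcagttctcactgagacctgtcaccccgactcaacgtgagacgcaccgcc
TUBB3: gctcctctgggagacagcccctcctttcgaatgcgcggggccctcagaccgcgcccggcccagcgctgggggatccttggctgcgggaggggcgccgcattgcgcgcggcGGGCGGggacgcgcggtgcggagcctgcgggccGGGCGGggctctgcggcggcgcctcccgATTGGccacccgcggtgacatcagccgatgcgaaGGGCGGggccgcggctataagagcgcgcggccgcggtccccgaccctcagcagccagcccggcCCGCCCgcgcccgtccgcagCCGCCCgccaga

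None of the searched motifs was present in all 3 windows. Over 35097 RefSeq promoters of the same length, 34.6% hold CCAAT on either strand, 44.9% hold GGGCGG and 11.5% hold TATAAA. None of the 3 windows holds TATAAA as an exact match. Variants of the motifs were not searched, so related sequences, such as ctataa in the TUBA4A and TUBB3 windows, were not counted. The windows have 16, 28 and 47 CpG dinucleotides, respectively, against a median of 14 over all promoters. These letters are a description of the windows, and binding was not measured.

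Before any drug, the 4 lines carried clearly different sets of isotypes. SNGM stood out for TUBB3, TUBA1A, TUBB6 and TUBB2A, HEC265 for TUBB and for low TUBA1A and TUBB6, and Ishikawa for TUBA1B and TUBA1C. TUBB2B was low in both SNGM and HEC265. Several of these differences lost their calls under alternatives given below, among them TUBA1B and TUBA1C in Ishikawa against HEC265. TUBB3 on vehicle was 328 and 290.1 CPM in SNGM, 62.8 and 62.0 in Ishikawa, 55.5 and 52.4 in Ishikawa-S33Y and 44.3 and 43.0 in HEC265. The SNGM libraries were thus far above all others, at 4.95 times the Ishikawa mean (adjusted p = 2.75e-14, limma). The test ran on log2(CPM + 1) with Benjamini-Hochberg adjustment over the 17011 genes, and its spread for a gene is pooled over all 16 groups. Where the replicates of a line vary more or less than this pooled spread, p-values within that line are too small or too large. Both Ishikawa libraries lay above both of Ishikawa-S33Y, but that difference did not pass the test (adjusted p = 0.111).

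TUBA1A, an alpha isotype prominent in developing neurons, was 411 and 314 CPM in SNGM, 180 and 173 in Ishikawa, 84.1 and 89.1 in Ishikawa-S33Y and 1.74 and 2.32 in HEC265. All 3 steps in that order passed the test (adjusted p = 5.80e-06, 1.64e-05 and 4.55e-17). TUBB6, a divergent beta isotype, decreased in the order SNGM (188 and 154 CPM), Ishikawa-S33Y (135 and 128), Ishikawa (102 and 103) and HEC265 (6.90 and 7.91), again with every step past the test, although the step from SNGM ended without SNGM vehicle replicate 1 (adjusted p = 0.126). TUBB2B was 22.2 and 17.1 CPM in Ishikawa and 21.2 and 24.7 in Ishikawa-S33Y, but 2.14 and 1.85 in SNGM and only 4 and 9 reads (0.178 and 0.347 CPM) in HEC265. The TUBB2B values of Ishikawa and Ishikawa-S33Y overlapped, and their difference did not pass the test (adjusted p = 0.682).

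TUBB, the main beta isotype of many cultured cells, was highest in HEC265: it was 2244 and 2192 CPM in HEC265, 1594 and 1547 in SNGM, 1195 and 1149 in Ishikawa and 939 and 988 in Ishikawa-S33Y. TUBA1B, a widely expressed alpha isotype, was 4339 and 3842 CPM in Ishikawa, 2847 and 2903 in HEC265, 2670.1 and 2775 in Ishikawa-S33Y and 2077 and 1669.8 in SNGM. Both HEC265 libraries lay above both of Ishikawa-S33Y, but this TUBA1B difference did not pass the test (adjusted p = 0.673). TUBB4B, another broadly expressed beta isotype, varied least, from a mean of 878 CPM in Ishikawa to 580.3 in SNGM, and only the step to SNGM passed the test (adjusted p = 0.00328, but 0.0675 without SNGM vehicle replicate 2). TUBA4A was lowest in SNGM (79.5 and 67.2 CPM), against 129 to 181 in the other vehicle libraries.

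As shares of reads, not corrected for transcript length, TUBB3 held 11.6% ± 0.312 (SD, n = 2) of the beta member reads in SNGM and 1.39% ± 0.0207 in HEC265. TUBB held 70.4% ± 0.759 of them in HEC265 and 48.7% ± 0.769 in Ishikawa-S33Y. TUBA1A held 12.5% ± 0.383 of alpha member reads in SNGM and 0.0551% ± 0.0105 in HEC265. Within each of these genes the share followed the order of its CPM at the ends of the range.

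**Figure D1:**
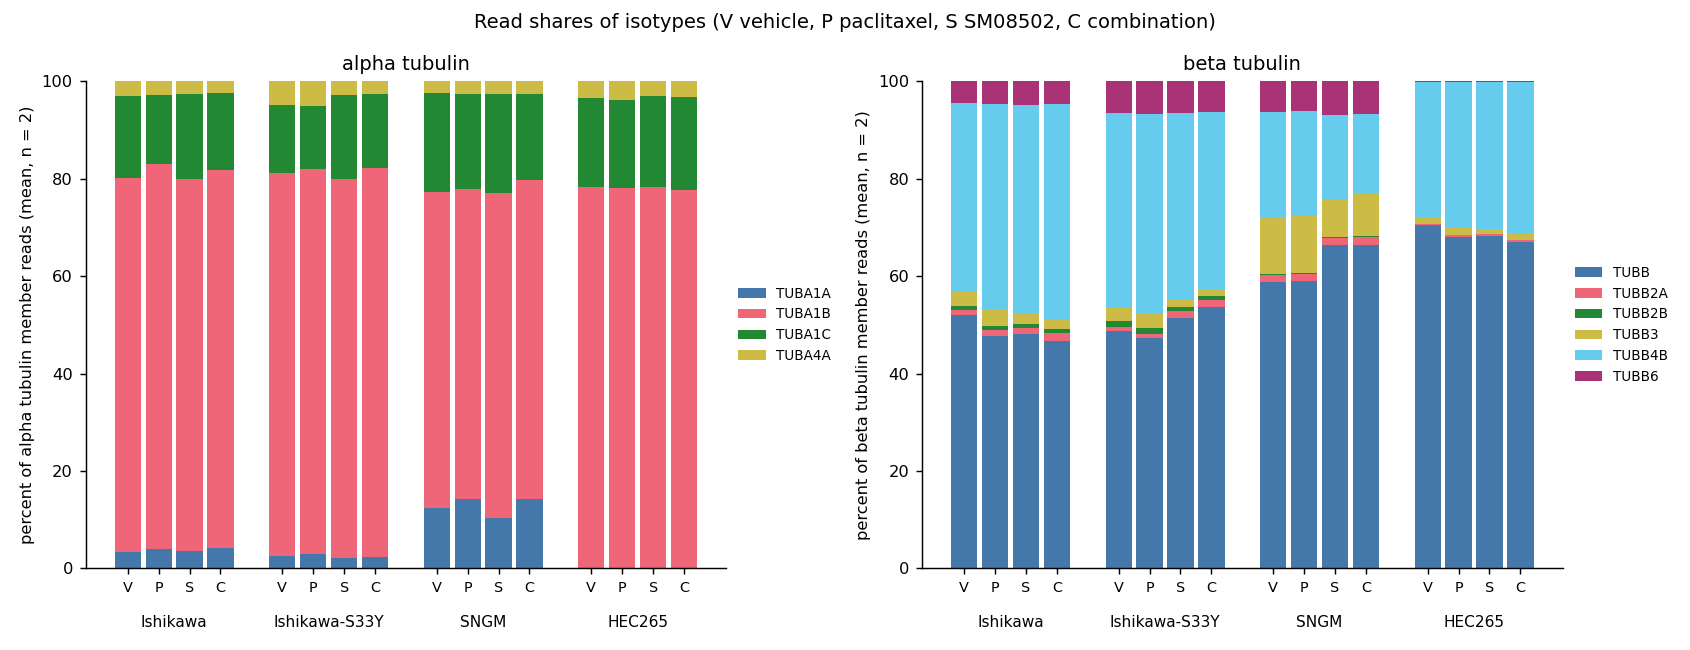
Stacked bars give the mean percent of alpha (left) or beta (right) member reads held by each isotype, over 2 libraries, for vehicle (V), paclitaxel (P), SM08502 (S) and combination (C) in each line. The TUBB3 band is widest in SNGM, where it held 11.6% of beta member reads on vehicle, and the TUBA1A band is not visible in HEC265, where it held 0.0551% of alpha member reads.

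Against Ishikawa on vehicle, Ishikawa-S33Y had 4 members lower and 1 higher, 5 of 10 called where 48.3% of all genes were called. TUBA1A was lower by log2 -1.02 ± 0.16 (SE), TUBA1C by -0.87 ± 0.12, TUBA1B by -0.58 ± 0.14 and TUBB2A by -0.46 ± 0.17, and TUBB6 was higher by 0.35 ± 0.11. The other 5 pairs of lines differed in 10 (SNGM against Ishikawa), 9 (HEC265 against Ishikawa), 9 (SNGM against Ishikawa-S33Y), 8 (HEC265 against Ishikawa-S33Y) and 9 (HEC265 against SNGM) members, with 66.8%, 63.3%, 60.8%, 58.0% and 54.9% of all genes called. The members' shares were above those of all genes in these 5 pairs and near that share in the S33Y pair. With 10 members this was not tested, and the other genes were not matched to the members for level.

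A length score was computed for each library by subtracting the mean log2 level of 78 ribosomal protein genes from that of 36 genes with long transcripts. It also differed by line, at -2.71 to -1.20 (Ishikawa), -1.59 to -0.88 (Ishikawa-S33Y), -0.80 to -0.33 (HEC265) and -0.31 to 0.44 (SNGM). The fit also holds a mean for each group, so the score's effect was estimated only from differences between replicates within groups. The widest was in Ishikawa paclitaxel, at -1.20 and -2.71. Vehicle libraries of different lines did not overlap in score, so score and line can hardly be told apart. The values with this covariate are therefore given as a description and are no check of the line differences. With that score as a covariate the S33Y differences of TUBA1B (adjusted p = 0.0860) and TUBB6 (0.138) lost their calls, and TUBB in SNGM against Ishikawa turned from 0.42 to -0.24 (adjusted p = 0.404). TUBA1C (0.229) and TUBB2A (0.727) lost their calls in SNGM against Ishikawa with that covariate. So did TUBA1B (0.557), TUBA1C (0.383), TUBA4A (0.200) and TUBB (0.0594) in HEC265 against Ishikawa. In SNGM against Ishikawa-S33Y it ended the calls of TUBA1B (0.0925) and TUBB6 (0.0792). The calls for TUBB2A in the S33Y pair (adjusted p = 0.247 without Ishikawa vehicle replicate 1, 0.0659 and 0.152 without Ishikawa-S33Y vehicle replicates 1 and 2) and TUBB6 (0.0509 and 0.0778 without the same-line replicate 1 of Ishikawa and Ishikawa-S33Y) each rested on single libraries. Quantile normalization moved the median of all genes by 0.27 between HEC265 and Ishikawa, and after median re-centring TUBA1B (adjusted p = 0.176), TUBA1C (0.245) and TUBA4A (0.406) no longer differed past the threshold in that pair. TUBB4B, at about 0 there, took either sign. Among the other line pairs, leaving out 1 vehicle library also ended calls of TUBB (SNGM against Ishikawa, up to 0.0767), TUBA1B and TUBA4A (HEC265 against Ishikawa, 0.0534 and 0.126 without Ishikawa replicate 1), TUBA1B (SNGM against Ishikawa-S33Y, 0.0558 without SNGM replicate 2), TUBB2A and TUBB3 (HEC265 against Ishikawa-S33Y, up to 0.0775 and 0.114) and TUBB2B (HEC265 against SNGM, up to 0.0610).

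**Figure D2:**
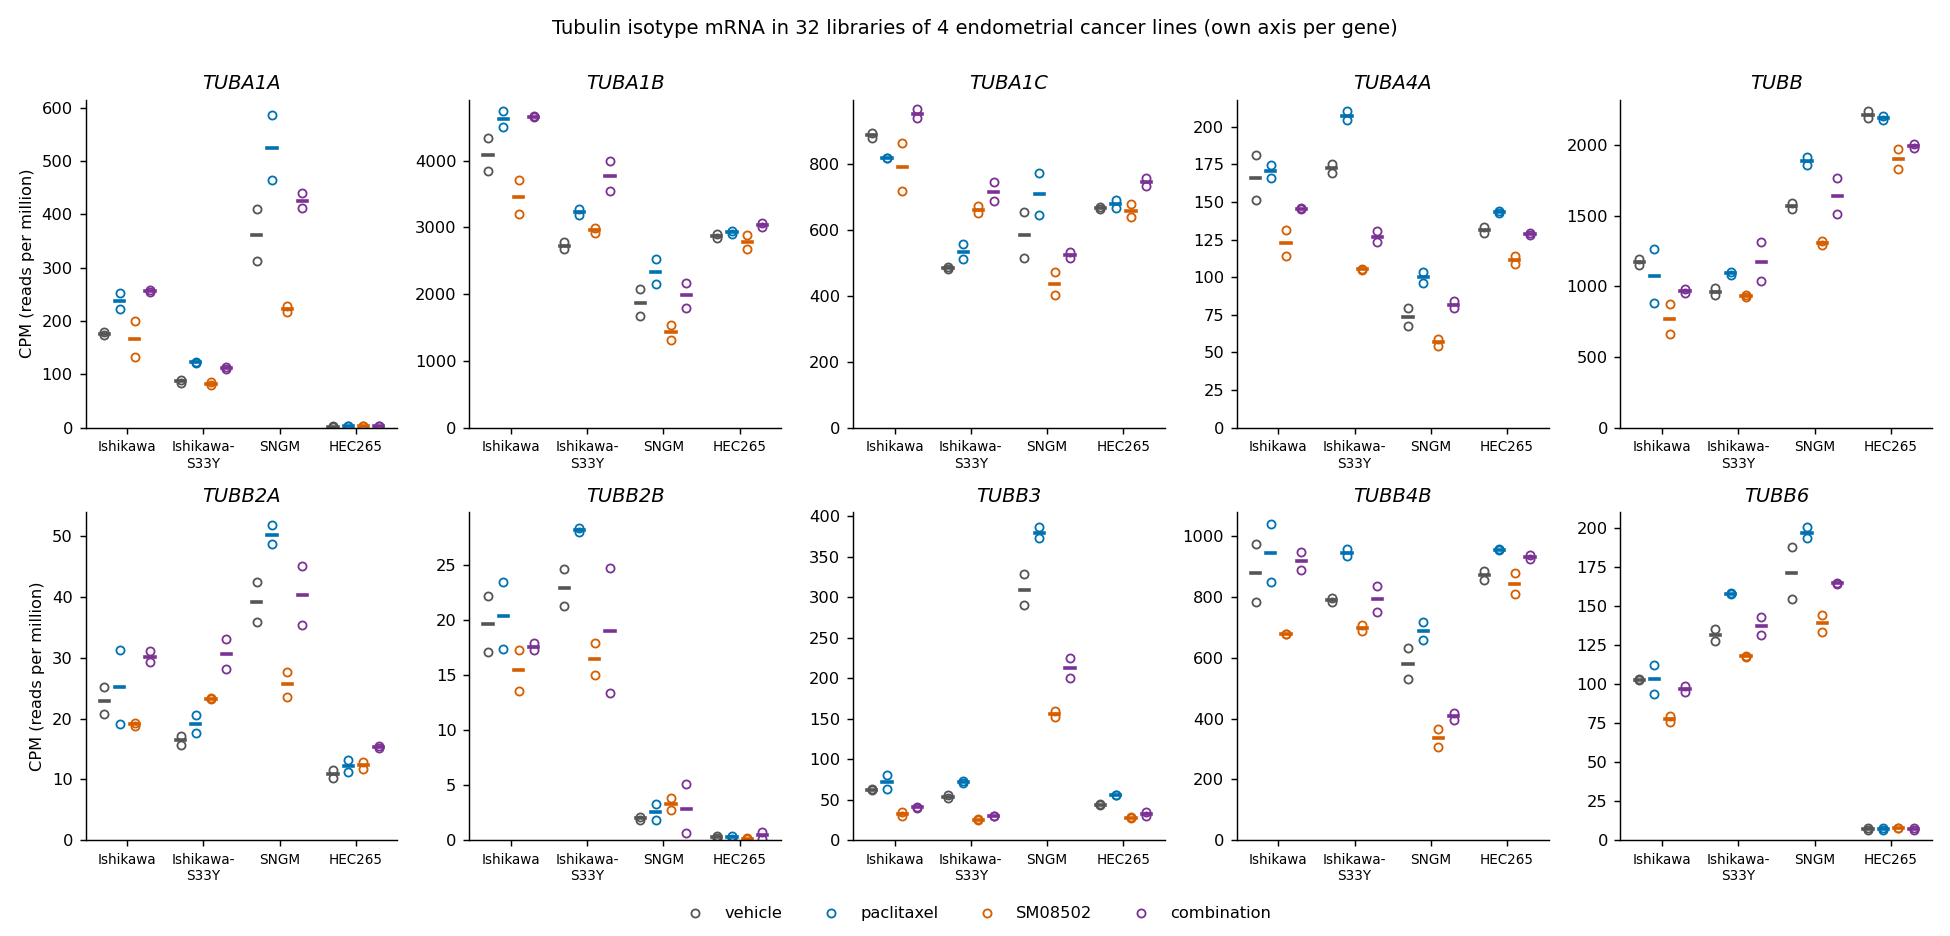
Each circle is 1 library, with CPM on its own linear axis from 0 for each gene, and bars mark the mean of 2 libraries for vehicle, paclitaxel, SM08502 and combination in each line. TUBB3 is highest in SNGM (290.1 to 328 CPM on vehicle) and falls with SM08502 in every line, and TUBA1A and TUBB6 are near the axis in HEC265.

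With paclitaxel alone the isotypes lay slightly above vehicle in the mean of the lines, and none passed the test after adjustment over all genes. In the mean of the 4 lines all 10 members were above vehicle, by log2 0.07 (TUBB) to 0.43 (TUBA1A), with a median of 0.19 against 0.01 over all genes. By line, all 10 were above vehicle in Ishikawa-S33Y and SNGM (medians 0.26 and 0.29). In Ishikawa and HEC265 7 were above and 3 below (medians 0.07 and 0.08). TUBB was among those below in both, at 0.918 and 0.988 times vehicle, with overlapping libraries. No member was called in any line or in the mean by limma, where 0.0118% (Ishikawa), 0.0% (Ishikawa-S33Y), 0.0176% (SNGM), 0.00588% (HEC265) and 0.0% (mean) of genes were called. At an unadjusted p under 0.05, 1, 5, 5 and 1 members were higher in the lines in that order, where 3.56%, 0.417%, 1.11% and 0.723% of all genes were, and 7 in the mean, where 1.71% were. In either direction 7.37%, 0.717%, 1.76% and 0.929% of all genes were at that level in the 4 lines. With the pooled spread, counts of different lines are not directly comparable.

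The beta isotype TUBB3 with paclitaxel was 386 and 372 CPM in SNGM, 80.2 and 63.5 in Ishikawa, 72.8 and 70.8 in Ishikawa-S33Y and 55.6 and 56.2 in HEC265. Every paclitaxel library lay above both vehicle libraries of its line, although Ishikawa replicate 2 did so by little (63.5 against 62.8 CPM). The mean difference was log2 0.31 ± 0.05 (adjusted p = 0.126), the smallest p among all 17011 genes.

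TUBA1A with paclitaxel was 586 and 465 CPM in SNGM, 223 and 252 in Ishikawa, 121 and 123 in Ishikawa-S33Y and 2.61 and 2.56 in HEC265. These 8 libraries too lay above the vehicle libraries of their lines, and the mean difference was 0.43 ± 0.08 (adjusted p = 0.164). In HEC265 the TUBA1A values rested on few reads, 65 and 65 with paclitaxel against 39 and 60 on vehicle. TUBA4A was 174 and 166 CPM in Ishikawa, within the vehicle values of 181 and 151, but 204 and 210.1 against 175 and 169 in Ishikawa-S33Y, 104 and 96.4 against 79.5 and 67.2 in SNGM, and 144 and 143 against 129 and 134 in HEC265. Its mean difference was 0.22 ± 0.05 (adjusted p = 0.919). TUBA1A and TUBA4A had the next 2 smallest p-values of the table after TUBB3.

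Counted by library, both paclitaxel libraries lay above both vehicle libraries for 10 members in Ishikawa-S33Y, 8 in SNGM, 5 in HEC265 and 3 in Ishikawa. Among all genes tested the same held for 24.3%, 14.6%, 28.8% and 13.3%. In no drug comparison were the other genes matched to the members for level. Some separations were slight, such as TUBA1B in HEC265, where the lower paclitaxel library was at 2903.7 and the higher vehicle library at 2903.03 CPM. The reverse, both below, held for 1 member, TUBA1C in Ishikawa (819 and 819.6 against 882 and 896 CPM), where 12.9% of all genes were below. In the other lines it held for no member and for 16.9% (Ishikawa-S33Y), 12.9% (SNGM) and 14.4% (HEC265) of genes. No member's paclitaxel effect differed among lines in an F test (adjusted p = 1 for all 10), and TUBA4A had the smallest unadjusted p, 0.0351. For the mean effect, TUBB3 was called without the filter (adjusted p = 0.0336), after re-centring each library on its median (0.0201) and after quantile normalization (0.00778), and TUBB3 and TUBA1A were called with the length score as a covariate (both 0.00473). The paclitaxel replicates of Ishikawa differed in that score, at -1.20 and -2.71.

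When paclitaxel was added to SM08502, 4 isotypes rose in the mean of the lines, in comparisons that share no library with the ones above. The p-values of both use the same estimate of spread per gene, fitted over all 32 libraries, so they are not independent. In this mean only 8 genes of 17011 were called (0.047%), and 4 of them were members: TUBA1A (0.54 ± 0.08, adjusted p = 0.0129), TUBA4A (0.31 ± 0.05, 0.0161), TUBB2A (0.48 ± 0.09, 0.0306) and TUBB3 (0.29 ± 0.05, 0.0326). The other 4, named because there were so few, were LUC7L, CCNL1 and GAD1, which were higher, and FLG, which was lower. All 10 members were higher in the combination, with a median of 0.28 against 0.00278 over all genes, and 9 had an unadjusted p under 0.05, where 7.4% of all genes were higher at that level.

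TUBA1A on SM08502 was 133 and 201 CPM in Ishikawa and 258 and 254 in the combination. In Ishikawa-S33Y it was 85.5 and 79.4 against 114 and 109, and in SNGM 217 and 228 against 412 and 439. In HEC265 its few reads overlapped, at 2.63 and 2.59 against 3.38 and 2.63 CPM. The groups were thus separate in the 3 lines that express the gene well.

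TUBA4A was separate in all 4 lines: 114 and 131 against 146 and 145 CPM in Ishikawa, 106 and 105 against 123 and 131 in Ishikawa-S33Y, 54.4 and 58.8 against 84.0 and 79.6 in SNGM, and 108 and 114 against 129 and 128 in HEC265. TUBB2A, a beta isotype abundant in brain, went from 19.3 and 18.9 to 31.1 and 29.3 CPM in Ishikawa, from 23.4 and 23.2 to 33.1 and 28.1 in Ishikawa-S33Y, from 27.7 and 23.6 to 45.0 and 35.5 in SNGM and from 11.7 and 12.9 to 15.6 and 15.2 in HEC265. It too was higher in every combination library. Both combination libraries lay above both SM08502 libraries for 9 members in Ishikawa, Ishikawa-S33Y and SNGM and for 7 in HEC265, where 14.8%, 19.2%, 20.5% and 22.7% of all genes did. TUBB6 in HEC265 lay below, at 6.73 and 7.55 against 7.86 and 8.07 CPM, as did 16.9% of all genes there.

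Within single lines, TUBA1A (0.93 ± 0.16, adjusted p = 0.0196) and TUBA4A (0.52 ± 0.10, 0.0308) were called in SNGM, among 0.253% of genes (0.235% higher). No member was called in Ishikawa, Ishikawa-S33Y or HEC265, where 0.0%, 0.129% (0.0588% higher) and 0.00588% of genes were, although 9, 6 and 1 members were higher at an unadjusted p under 0.05 by limma, where 1.15%, 4.4% and 0.811% of all genes were. The SNGM calls ended without either SM08502 replicate (TUBA1A 0.110 and 0.251, TUBA4A 0.124 and 0.251), without the shallow combination replicate 2 (0.271 and 0.221) and when only SNGM libraries were fitted (0.690 for both).

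The calls in the mean of lines were near the threshold. With the replicate block in limma TUBA1A kept its call, and TUBA4A (adjusted p = 0.0546), TUBB2A (0.0542) and TUBB3 (0.0713) lost theirs. TUBA1A ranged from an adjusted p of 2.37e-04 to 0.0758 over 26 alternatives and lost its call without Ishikawa combination replicate 2 (0.0555), Ishikawa-S33Y SM08502 replicate 2 (0.0758) or HEC265 SM08502 replicate 1 (0.0548), and with voom weights on recovered reads (0.0668). TUBA4A lost it without these same libraries and without Ishikawa-S33Y SM08502 replicate 1, SNGM SM08502 replicate 1 or either HEC265 combination replicate (0.0506 to 0.0758). TUBB2A kept its call when Ishikawa SM08502 replicate 2 or any combination library of Ishikawa-S33Y or SNGM was left out, and lost it without each of the other 11 libraries (up to 0.123). TUBB3 kept it without either Ishikawa SM08502 library, Ishikawa-S33Y combination replicate 1 or either SNGM combination library, and lost it without each of the other 11 (up to 0.121), with voom weights (0.0632) and without the intensity trend (0.0637).

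**Figure D3:**
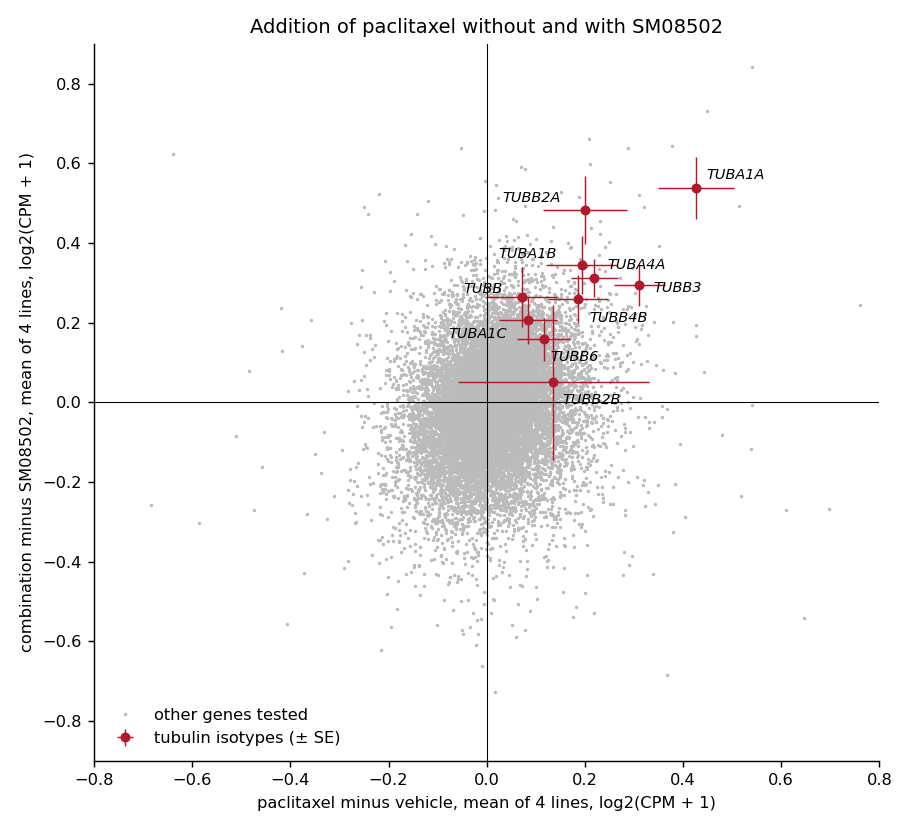
Each point is a gene, with its log2 difference of paclitaxel from vehicle on the x axis and of combination from SM08502 on the y axis, both as the mean of 4 lines on the log2(CPM + 1) scale, and red points are the 10 isotypes with SE (9 other genes lie outside the axes). The isotypes sit in the upper right, from 0.07 to 0.43 on x and 0.05 to 0.54 on y.

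A contrast that averages both additions of paclitaxel was added after these values were seen. It called 5 genes (0.0294%): TUBA1A (0.48 ± 0.05, adjusted p = 3.09e-04), TUBB3 (0.30 ± 0.04, 5.57e-04), TUBA4A (0.27 ± 0.03, 6.48e-04) and TUBB2A (0.34 ± 0.06, 0.0427) were higher, and UCP2 was lower. The calls of TUBA1A, TUBB3 and TUBA4A held in all 42 alternatives run, with largest adjusted p of 0.00737, 0.00250 and 0.00843. TUBB2A lost its call in 23 of them (up to 0.129, without HEC265 paclitaxel replicate 1). TUBA1B (0.27 ± 0.05) and TUBB4B (0.22 ± 0.04) just missed it, both at an adjusted p of 0.0605, and TUBB2B, the member with the fewest reads, had the smallest and least certain difference (0.09 ± 0.14).

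SM08502 alone moved TUBB3 down in all 4 lines. TUBB3 with SM08502 was 153 and 160.1 CPM in SNGM, 34.3 and 30.2 in Ishikawa, 26.7 and 24.4 in Ishikawa-S33Y and 27.0 and 28.8 in HEC265. Every value lay below both vehicle libraries of its line, and the means were at 0.506, 0.517, 0.474 and 0.638 times vehicle. The fall was called in each line in that order, at log2 -0.98 ± 0.11 (adjusted p = 7.11e-06), -0.93 ± 0.11 (9.15e-06), -1.05 ± 0.11 (6.21e-07) and -0.63 ± 0.11 (3.20e-04), and in the mean at -0.90 ± 0.05 (7.16e-11). It did not differ among lines past the threshold (F test, adjusted p = 0.177). Fitted on the Ishikawa libraries alone, its fall there had an adjusted p of 0.0674, and no other alternative ended a TUBB3 call in these comparisons. Its share of beta member reads in SNGM went from 11.6% ± 0.312 on vehicle to 7.95% ± 0.0204 (SD, n = 2).

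In the mean of the lines 5 members fell with SM08502 and none rose, where 15.8% of all genes fell and 22.6% rose. Besides TUBB3 these were TUBA4A (-0.44 ± 0.05, adjusted p = 4.69e-07), TUBB4B (-0.34 ± 0.06, 1.51e-04), TUBB (-0.29 ± 0.07, 0.00439) and TUBB6 (-0.19 ± 0.05, 0.00829). TUBB missed the threshold after quantile normalization (0.0511). TUBA1A, TUBA1B, TUBA1C, TUBB2A and TUBB2B were not called, at -0.15 to -0.04 with a largest SE of 0.19.

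TUBA4A fell in Ishikawa (114 and 131 CPM against 181 and 151), Ishikawa-S33Y (106 and 105 against 175 and 169) and SNGM (54.4 and 58.8 against 79.5 and 67.2), with adjusted p of 0.00418, 1.71e-05 and 0.0197. In HEC265 it was 108 and 114 against 129 and 134 CPM, which was separate but not called (adjusted p = 0.107). The Ishikawa call ended without vehicle replicate 1 (0.0896), and the SNGM call without vehicle replicate 1 (0.268) or SM08502 replicate 1 (0.199).

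By line, 4 members were lower and none higher in Ishikawa, where 15.2% of all genes were called (8.68% lower, 6.5% higher). In Ishikawa-S33Y 2 were lower and 2 higher (29.1% of genes called, 10.6% lower, 18.5% higher). In SNGM 6 were lower and none higher (7.86% called, 4.06% lower, 3.8% higher), and in HEC265 1 was lower and none higher (14.7% called, 5.39% lower, 9.27% higher). Among the Ishikawa calls, TUBB (876 and 663 against 1195 and 1149 CPM, -0.62 ± 0.15) and TUBB6 (79.8 and 75.8 against 102 and 103, -0.40 ± 0.11) joined TUBB3 and TUBA4A. Both calls were fragile: TUBB lost it without vehicle replicate 1 (0.0572) or SM08502 replicate 2 (0.158), and TUBB6 without vehicle replicate 1 (0.0703), vehicle replicate 2 (0.0896) or SM08502 replicate 2 (0.121).

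The alpha isotype TUBA1C moved in opposite directions in Ishikawa-S33Y and SNGM. It rose in Ishikawa-S33Y from 481 and 487 to 651 and 674 CPM (0.45 ± 0.12, adjusted p = 0.00663) and fell in SNGM from 654 and 515 to 404 and 472 (-0.41 ± 0.12, 0.0342). TUBB2A did likewise, from 17.1 and 15.7 to 23.4 and 23.2 CPM (0.48 ± 0.17, 0.0381) and from 42.5 and 35.9 to 27.7 and 23.6 (-0.59 ± 0.17, 0.0342). In SNGM TUBB4B fell as well, from 631 and 529.7 to 307 and 367 CPM (-0.78 ± 0.12, 3.15e-04), and TUBA1A, from 411 and 314 to 217 and 228 (-0.69 ± 0.16, 0.00722).

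An F test across the 4 lines called 4 members for SM08502, where 12.4% of genes were called: TUBA1C (adjusted p = 0.00913), TUBB2A (0.0188), TUBB4B (0.0260) and TUBA1A (0.0303). Median re-centring left 1 of the 4. The rise of TUBA1C in Ishikawa-S33Y ended without SM08502 replicate 2 (0.0579), and that of TUBB2A without any 1 of the 4 libraries (0.0884 to 0.190). In SNGM, without vehicle replicate 1 or SM08502 replicate 1, the falls of TUBA1A (0.148, 0.0806), TUBA1C (0.400, 0.346) and TUBB2A (0.258, 0.0807) were not called, TUBB2A also not without vehicle replicate 2 (0.0650) or SM08502 replicate 2 (0.252). Median re-centring ended the SNGM calls of TUBA1C (0.105) and TUBA4A (0.0713), dropping the filter those of TUBA1C (0.0558) and TUBB2A (0.0544), and fitting SNGM alone all but that of TUBB3 (0.0731 for TUBB4B to 0.311 for TUBA1C). The sum of TUBA1A, TUBA1B and TUBA1C does not depend on how shared reads were split among them, but it would if such reads were left out. With SM08502 this sum was at 0.742 times vehicle in SNGM and 1.12 times in Ishikawa-S33Y.

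**Figure D4:**
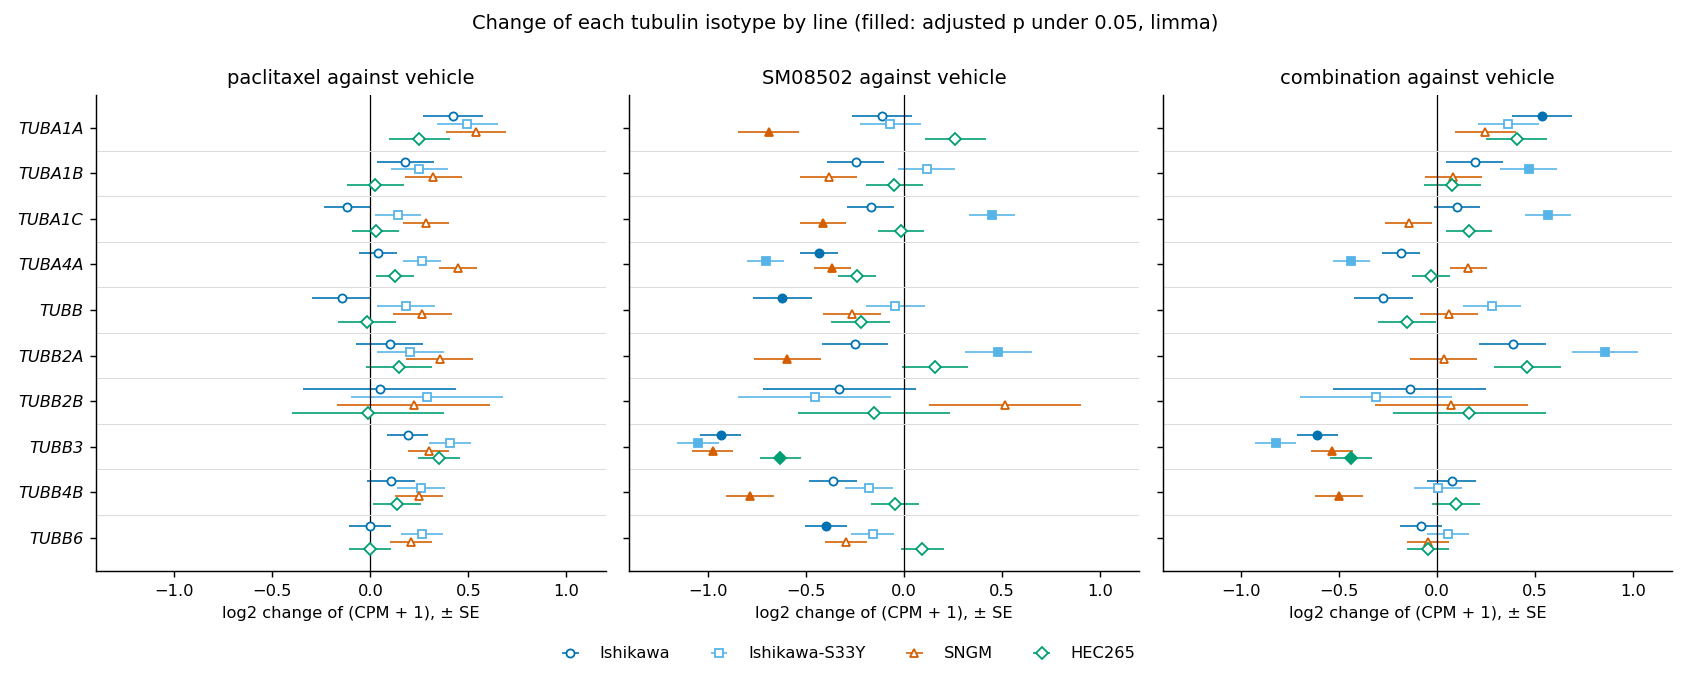
Points give the log2 change of (CPM + 1) of each isotype from vehicle in 4 lines for paclitaxel (left), SM08502 (centre) and combination (right), with bars for SE, and filled symbols mark an adjusted p under 0.05 in limma. TUBB3 is filled below 0 in all 4 lines with SM08502 (-1.05 to -0.63) and with the combination (-0.82 to -0.44), and no symbol is filled for paclitaxel.

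With both drugs TUBB3 stayed below vehicle in every line. TUBA1A, TUBA1B, TUBA1C and TUBB2A were called above vehicle in the mean of the lines, where 29.0% of all genes were called higher. No member was called higher in SNGM or HEC265. TUBB3 in the combination was 225 and 200.4 CPM in SNGM, 40.1 and 40.9 in Ishikawa, 29.6 and 30.4 in Ishikawa-S33Y and 34.5 and 29.5 in HEC265, below both vehicle libraries and above both SM08502 libraries of each line. It was called lower in every line (-0.54, -0.61, -0.82 and -0.44 in the same order, each ± 0.11), although the HEC265 call ended without combination replicate 2 (adjusted p = 0.114) and the Ishikawa call when only Ishikawa libraries were fitted (0.0787). In the mean, 6 members were called, where 49.1% of all genes were (29.0% higher, 20.1% lower): TUBB2A (0.43 ± 0.09), TUBA1A (0.39 ± 0.08), TUBA1B (0.20 ± 0.07) and TUBA1C (0.17 ± 0.06) were higher, and TUBB3 (-0.60 ± 0.05) and TUBA4A (-0.12 ± 0.05) lower. These values share the vehicle libraries with those of each drug alone.

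TUBA4A lost its mean call in 15 of 26 alternatives (adjusted p up to 0.122, without Ishikawa vehicle replicate 1), 11 of which left out a single library (0.0511 to 0.122). TUBA1B lost it without the filter (0.109), after median re-centring (0.0923), with the length score (0.0877) and without Ishikawa vehicle replicate 2 (0.0607), Ishikawa-S33Y combination replicate 1 (0.0528), SNGM vehicle replicate 2 (0.0685) or SNGM combination replicate 2 (0.0576). TUBA1C lost it after re-centring (0.0800), with the length score (0.0691) and without SNGM vehicle replicate 2 (0.0730). By line, Ishikawa-S33Y had 5 members called (42.0% of genes, 24.0% higher and 18.0% lower) and Ishikawa 2 (22.8%, 11.6% higher and 11.2% lower). SNGM had 2 called, both lower (18.4% of genes, 7.54% lower), and HEC265 had 1 lower (19.5%, 7.16% lower). The other Ishikawa call was TUBA1A, at 258 and 254 CPM against 180 and 173 (0.53 ± 0.16, adjusted p = 0.0171, but 0.0575 to 0.101 without any 1 of those 4 libraries). Ishikawa-S33Y had the most, with TUBB2A at 33.1 and 28.1 CPM against 17.1 and 15.7 on vehicle (0.86 ± 0.17, adjusted p = 4.13e-04), TUBA1C at 745 and 688 against 481 and 487 (0.56 ± 0.12, 6.56e-04) and TUBA1B at 3989 and 3546 against 2670.1 and 2775 (0.47 ± 0.14, 0.0132, but 0.0780 without vehicle replicate 1 and 0.0919 without combination replicate 1). TUBA4A was lower there, at 123 and 131 against 175 and 169 CPM (-0.44 ± 0.10, 9.48e-04). In SNGM TUBB4B remained lower, at 397 and 419 against 631 and 529.7 CPM (-0.50 ± 0.12, 0.00694, but 0.101 without vehicle replicate 1).

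The effect of the combination differed among lines for TUBA4A (F test, adjusted p = 0.0134), TUBA1C (0.0196) and TUBB4B (0.0320), where 27.1% of all genes were called. No member departed from additivity of the drugs on the log2 scale in limma (adjusted p = 0.998 for all 10), and 0.0% of genes did. Among the members TUBB2A alone had an unadjusted p under 0.05, as did 3.37% of all genes (1.92% higher). Its departure was 0.28, with a 95% interval of 0.03 to 0.53. The interval for TUBB3 was -0.17 to 0.14.

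The sum of all 10 isotypes gives the net effect on tubulin reads. On vehicle it was 7962 and 7196 CPM in Ishikawa, 6805 and 6847 in HEC265, 6006 and 5125 in SNGM and 5360.3 and 5527 in Ishikawa-S33Y. In that order of lines the combination mean was at 1.07, 1.01, 0.985 and 1.27 times vehicle, paclitaxel at 1.07, 1.02, 1.23 and 1.18 times, and SM08502 at 0.809, 0.930, 0.739 and 1.03 times. As a sum over chosen genes it has no test, and the abundant TUBA1B and TUBB dominate it.

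The lists of related genes are read for SM08502 in the mean of the lines, where 22.6% of all genes rose and 15.8% fell. Among 8 tested genes of 12 other tubulins, 3 rose and none fell: TUBE1 (epsilon, 12.6 to 15.4 CPM, 0.34 ± 0.08), TUBD1 (delta, 22.2 to 27.8 CPM, 0.22 ± 0.06), both centriole tubulins, and TUBB1 (0.566 to 1.05 CPM, 0.35 ± 0.11), known from platelets. The 22 genes of tubulin folding, which hold the chaperonin and prefoldin subunits and the tubulin cofactors, had 10 higher and 4 lower. TBCD, a cofactor that handles the beta subunit, fell most, from 85.5 to 40.8 CPM (-1.12 ± 0.06, adjusted p = 4.65e-11), while the prefoldin subunits PFDN2 (0.41 ± 0.12) and PFDN5 (0.31 ± 0.11) rose.

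Of 9 genes of tubulin mRNA autoregulation, 3 rose and 1 fell with SM08502, against 22.6% and 15.8% of all genes. TTC5, the adaptor that recognises nascent tubulin, rose from 18.7 to 35.3 CPM (0.92 ± 0.07, adjusted p = 4.77e-09) and was called in each line, at 0.70 to 1.16. CNOT1 (0.27 ± 0.10) and CNOT7 (0.19 ± 0.06), subunits of the CNOT deadenylase, rose as well. Of 15 tubulin-modifying enzymes tested of 16, 3 rose and 4 fell, against the same shares of all genes, among them the deglutamylase AGBL5 (58.6 to 28.5 CPM, -1.01 ± 0.06), the detyrosinating enzyme VASH1 (12.8 to 7.21 CPM, -0.70 ± 0.12) and the acetyltransferase ATAT1 (12.4 to 17.2 CPM, 0.44 ± 0.07). None of these 4 lists had a gene called when paclitaxel was added to vehicle or to SM08502 in the mean of the lines (limma). Of all genes 0.0% and 0.047% were called there. At an unadjusted p under 0.05 the lists held 0, 1, 0 and 1 genes in the former and 2, 0, 0 and 3 in the latter. Among all genes 2.82% and 11.5% were at that level in either direction.

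Over the 32 libraries, which share line and treatment, the tested gene with the log2(CPM + 1) profile closest to an isotype was found by Pearson's r. It was 0.996 for TUBB6 with SDC2, 0.99 for TUBA1A with FAM89A, 0.98 for TUBB2B with IGFBP2 and 0.96 for TUBB3 with B4GALT4 and with ADAMTS9. The highest r was 0.94 for TUBB with TBC1D4 and TUBA1B with H3F3B, 0.93 for TUBB2A with PAG1, 0.92 for TUBB4B with CREG1 and 0.90 for TUBA1C with EXT2 and TUBA4A with SLC12A2. These coefficients are given as a description.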

How the data were processed

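Total RNA depleted of ribosomal RNA was sequenced, per the labels' protocols, from 32 libraries in 16 groups of 2. The table deposited by the authors holds 35238 genes as log10(CPM + 1). The submitters' processing notes name bcl2fastq, kallisto, STAR and GRCh38 without their roles; the counting program, annotation and strand are not given in the sources used here. Values were turned back into CPM and then whole reads, which were recovered for 100% of values within 0.1 read, and this gave the depth.

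Tests ran on log2(CPM + 1), with a pseudocount of 1, for the 17011 genes above 1 CPM in at least 2 libraries. One mean per group was fitted to all 32 libraries in limma 3.58.1 (R 4.3.3) with an intensity trend (16 residual and 4.90 prior degrees of freedom). The 28 contrasts and 3 F tests were each adjusted by Benjamini-Hochberg over all genes, and a call is an adjusted p under 0.05. Fold changes on this scale understate changes of low genes. The averaged paclitaxel contrast was added after values were seen. Scripts were tested on simulated data. Shares, sums and counts were computed with Python 3.11.15 and pandas 2.3.3.

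All 10 isotypes are reported. From each pathway list up to 3 genes with the largest called SM08502 change were named, and for each isotype up to 2 genes with the highest Pearson's r. MATCAP1 was not matched. The members and lists were chosen with earlier results of these data known. Alternatives were the filter, pseudocount, scaling, trend, samples fitted, replicate block, voom weights on recovered reads and leaving out each library. A length score covariate, leaving out the 2 shallow libraries and crossed replicate numbers were also tried.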

Additional observations from a re-analysis of the deposited data

Results flagged for a closer look

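The effect of a drug differed among the 4 lines in 7 cases, each by an F test in limma with adjustment over all genes. For SM08502 these were TUBA1C (adjusted p = 0.00913), TUBB2A (0.0188), TUBB4B (0.0260) and TUBA1A (0.0303). TUBA1C and TUBB2A were called higher in Ishikawa-S33Y (log2 0.45 and 0.48) and lower in SNGM (-0.41 and -0.59), while TUBB4B and TUBA1A were called lower in SNGM only (-0.78 and -0.69). For the combination they were TUBA4A (0.0134), TUBA1C (0.0196) and TUBB4B (0.0320). TUBA4A was called lower in Ishikawa-S33Y only (-0.44), TUBA1C higher in Ishikawa-S33Y only (0.56) and TUBB4B lower in SNGM only (-0.50). Among all genes 12.4% and 27.1% differed among lines in these tests. After median re-centring 1 of the 4 SM08502 calls was left. The SM08502 count fell to 1 without Ishikawa-S33Y vehicle replicate 2, Ishikawa-S33Y SM08502 replicate 2 or SNGM vehicle replicate 1, and to 2 without Ishikawa-S33Y vehicle replicate 1, either SNGM SM08502 replicate, HEC265 vehicle replicate 1 or HEC265 SM08502 replicate 2. The combination count of 3 fell to 0 without Ishikawa-S33Y vehicle replicate 1 and to 1 without Ishikawa-S33Y vehicle replicate 2 or SNGM vehicle replicate 1. Dose differed by line and cannot be told apart from it.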

How the results depend on the processing

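Of 96 single calls of an isotype, each recomputed under the alternatives (1713 values), 1522 kept call and direction, 190 lost the call and 1 reversed: TUBB in SNGM against Ishikawa was -0.24 with the length score (0.42 without it). Between lines, score and line can hardly be told apart, so length score values there are no check of line differences. Counts of isotypes called that moved by over 1.5 times follow. For paclitaxel in the mean of lines the count was 0, and 1 without the filter, after median re-centring or after quantile normalization, and 2 with the length score. Fitting only the compared lines gave 0 for SM08502 and for the combination in Ishikawa (from 4 and 2), 1 for both in SNGM (from 6 and 2), 3 for both in HEC265 (from 1 and 1), 1 for combination against SM08502 in Ishikawa-S33Y (from 0) and 0 in SNGM (from 2). Median re-centring gave 3 for the combination in the mean (from 6), 0 for combination against SM08502 in SNGM and 1 for the SM08502 F test (from 4). The length score gave 2 for SM08502 and for the combination in HEC265, 4 and 7 for combination against SM08502 in SNGM and in the mean (from 2 and 4), 8 for the averaged paclitaxel contrast (from 4), 5 for HEC265 against Ishikawa (from 9), and 8 and 5 for the SM08502 and combination F tests (from 4 and 3). Quantile normalization gave 5 for the combination F test. For the combination in HEC265 the stricter filter, pseudocount 0.1, voom and leaving out the shallow libraries each gave 2, and the last gave 0 for combination against SM08502 in SNGM.

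Leaving out 1 library at a time gave 0 to 1 calls for paclitaxel in the mean. For SM08502 it gave 1 to 4 in Ishikawa, 2 to 3 in Ishikawa-S33Y, 2 to 5 in SNGM, 1 in HEC265 and 5 to 6 in the mean. For the combination it gave 1, 4 to 5, 1 to 3, 0 to 1 and 4 to 6 in the same order. For combination against SM08502 it gave 0 to 1 in Ishikawa, 0 to 5 in SNGM and 0 to 7 in the mean, and for the averaged contrast 3 to 7. Between lines it gave 3 to 5 (Ishikawa-S33Y against Ishikawa), 9 to 10 and 7 to 9 (SNGM and HEC265 against Ishikawa), 8 to 9 and 6 to 8 (against Ishikawa-S33Y) and 8 to 9 (HEC265 against SNGM). The F tests gave 1 to 5 (SM08502) and 0 to 4 (combination).

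Same-numbered libraries deviated together in some pairs of groups (0.84 for vehicle and paclitaxel and 0.60 for SM08502 and combination in SNGM, 0.86 for paclitaxel and SM08502 in Ishikawa) and oppositely in others. The correlations ran from -0.57 to 0.86 in Ishikawa, -0.12 to 0.14 in Ishikawa-S33Y, -0.65 to 0.84 in SNGM and -0.15 to 0.33 in HEC265, and in no line were all above 0.1, so the numbers were not taken to pair the samples. With the replicate block the count was 1 for combination against SM08502 in SNGM (from 2) and in the mean (from 4, where TUBA4A had an adjusted p of 0.0546, TUBB2A 0.0542 and TUBB3 0.0713), 2 for the combination in HEC265, 5 for the combination in the mean (from 6), 4 for Ishikawa-S33Y against Ishikawa (from 5), 8 for HEC265 against SNGM (from 9) and 4 for the combination F test (from 3). A block with crossed numbers, chosen after seeing the data, gave 2 for the combination in HEC265 and changed none of the other 7 counts it was run on. The causes of these changes were not tested. Depth limits TUBB2B in SNGM and HEC265 and TUBA1A in HEC265, and a count of 3 reads was worth 1.87 CPM in the shallowest library.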
